A study of Mus musculus with 4 samples.

Results

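A set of 9 genes of the epithelial tight junction and its associated adhesion proteins was examined in larynx RNA from *Shh*-/- and wild-type (WT) mouse embryos. They were found by gene name in the deposited tables, which list 46983 genes each, and every one of the 9 (*Cldn3*, *Cldn4*, *Cldn6*, *Cldn7*, *Ocln*, *Tjp1*, *Tjp3*, *Epcam* and *F11r*) has a single entry. The series holds 4 bulk RNA-seq libraries from E10.5 embryos of 32 to 35 somites, 2 from *Shh*-/- larynx (pools 1 and 2) and 2 from Swiss Webster WT larynx (pools 4 and 6), each made from 3 pooled larynxes. The mutant carries the *Shh*tm1amc null allele, which the study's methods place on the same Swiss Webster background. The sample labels write the genotype of these pools as Shh+/-, whereas the series design and the paper call them *Shh*-/-, and that name is used here. The tissue was dissected whole, with epithelium, mesenchyme, vessels, blood and nerve together, so that fewer epithelial cells and less RNA per epithelial cell cannot be told apart.

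Tight junctions seal the space between neighboring epithelial cells near their apical surface. Claudins are small membrane-spanning proteins that polymerize into the sealing strands and set which ions pass. Occludin (*Ocln*) lies in the same strands, JAM-A (*F11r*) is an immunoglobulin-type adhesion protein at the junction, and the scaffold proteins ZO-1 (*Tjp1*) and ZO-3 (*Tjp3*) tie the strands to actin. EpCAM (*Epcam*) is an adhesion protein of the lateral membrane that binds claudin-7 and is widely used as an epithelial marker. In an epithelial-to-mesenchymal transition (EMT), repressors of the Snail and Zeb families are known to switch off several of these genes through E-box motifs in their promoters. The comparison asks how the RNA of this apparatus stands in a larynx without *Shh*.

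RefSeq promoter windows (GRCm38.p6, the assembly of mm10), each running from 250 bases before to 50 bases after an annotated start site, were found for all 9 genes, in 12 windows. The E-box letters CACCTG, read on either strand (CAGGTG on the other), occurred in the windows of 8 of the 9 genes, at 14 distinct sites. The same letters occurred in 20.2% of all 32851 windows and in the windows of 22.1% of protein-coding genes. Most of the 12 windows were richer in GC than the median of all windows (52.7%), up to 68.0% in *Ocln*. These shares were not matched for GC content. *Tjp1* was the member without a match, but its single window lies inside the deposited gene interval, and the 5′ end of that interval was not examined. Among the other lists, in counts made after the members' result was seen, the motif was held by 5 of 5 other tight junction membrane protein genes with a window, 9 of 18 plaque and polarity genes, 7 of 9 epithelial genes and 1 of 16 other claudin genes. A second motif, ACCGGTT, which is part of the sequence bound by Grainyhead-like factors, was found in none of the 12 windows and in 1.02% of all windows. These matches are letters in a fixed window and carry no measure of binding.

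The stretch from 120 bases before to 50 bases after the start site is shown for the 4 claudins and *Epcam*, which hold the E-box in it. It is also shown for *Tjp1*, in which the E-box was not found. Copies near the start in *Ocln* (first base at 8) and *Tjp3* (first base at −17) are not shown. Capitals mark CACCTG or its reverse complement, and each sequence is written 5′ to 3′ along the gene's own strand.
Cldn3: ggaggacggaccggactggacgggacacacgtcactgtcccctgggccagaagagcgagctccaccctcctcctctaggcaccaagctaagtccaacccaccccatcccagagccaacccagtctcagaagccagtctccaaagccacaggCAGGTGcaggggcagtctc
Cldn4: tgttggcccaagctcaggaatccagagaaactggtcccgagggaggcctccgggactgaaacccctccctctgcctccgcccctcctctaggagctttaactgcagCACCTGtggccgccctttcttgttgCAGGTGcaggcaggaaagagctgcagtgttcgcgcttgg
Cldn6: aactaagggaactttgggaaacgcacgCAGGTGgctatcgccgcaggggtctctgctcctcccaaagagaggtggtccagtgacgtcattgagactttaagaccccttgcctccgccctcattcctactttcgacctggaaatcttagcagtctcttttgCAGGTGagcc
Cldn7: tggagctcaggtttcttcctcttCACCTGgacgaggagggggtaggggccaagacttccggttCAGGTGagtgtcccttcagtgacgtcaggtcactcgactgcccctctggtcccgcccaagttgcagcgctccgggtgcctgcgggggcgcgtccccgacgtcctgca
Epcam: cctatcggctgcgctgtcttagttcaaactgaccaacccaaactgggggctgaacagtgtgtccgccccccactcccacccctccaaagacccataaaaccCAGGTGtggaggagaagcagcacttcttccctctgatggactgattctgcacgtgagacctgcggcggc
Tjp1: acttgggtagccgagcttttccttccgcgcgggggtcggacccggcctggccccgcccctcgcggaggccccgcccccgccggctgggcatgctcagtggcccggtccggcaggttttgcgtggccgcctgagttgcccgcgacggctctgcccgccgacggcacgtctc

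The stretches lie at chr5:134986094-134986263 (*Cldn3*, plus strand), chr5:134946885-134947054 (*Cldn4*, minus strand), chr17:23679245-23679414 (*Cldn6*, plus strand), chr11:69965301-69965470 (*Cldn7*, plus strand), chr17:87635859-87636028 (*Epcam*, plus strand) and chr7:65371195-65371364 (*Tjp1*, minus strand). The *Cldn4* stretch holds the motif on both sides of the start, its first bases at −14 and at 12 counted from the start site. In *Epcam* the motif begins at −19, and a further copy at −187 falls outside the stretch. The *Cldn3* copy begins 32 bases into the transcript. *Cldn7* has 2 annotated start sites; the one shown, which lies inside the deposited gene interval, has copies at −97 and −57, and the window of the other has none.

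In the mm10 coordinates of the tables, *Cldn3* lies at chr5:134986214-134987472 and *Cldn4* at chr5:134945119-134946934, *Cldn6* at chr17:23679365-23682446 and *Epcam* at chr17:87635979-87651106, *Cldn7* at chr11:69964779-69967885, *F11r* at chr1:171437535-171464603, *Ocln* at chr13:100496507-100552718, *Tjp1* at chr7:65296165-65527781 and *Tjp3* at chr10:81273207-81291267. *Tjp3* overlaps *Apba3* and *Cldn3* overlaps *Wbscr25*, each by 40 bases, and *Tjp1* contains parts of 3 gene models of at most 0.42 TPM. Whether reads were assigned by strand is not given in the sources used here, so reads in such overlaps cannot be told apart.

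*Shh* and its target *Ptch1* were lower in both pools called *Shh*-/- than in both WT pools. *Shh* measured 10.4 and 10.8 TPM (a length-corrected share of each library's transcripts, scaled to a fixed sum) in *Shh*-/- larynx and 23.7 and 42.1 TPM in WT, and *Ptch1* 12.9 and 13.8 against 57.8 and 55.1 TPM. The limma adjusted p was 0.0895 for *Shh*, which was still at 0.355-fold of WT on the fitted scale, and 0.0319 for *Ptch1*, so *Ptch1* alone was called and the level of *Shh* does not settle the genotype. The libraries held 1.37, 3.13, 2.85 and 2.97 Gb of aligned sequence for *Shh*-/- pools 1 and 2 and WT pools 4 and 6, so *Shh*-/- pool 1 was the shallowest. All 9 members passed the filter of a mean TPM of at least 1, together with 16972 genes in all. Differences were tested with limma on log2(TPM + 1) over those genes with Benjamini-Hochberg adjustment, and are given as *Shh*-/- minus WT, a scale that understates the change of low genes. At an adjusted p under 0.05, 123 of the 16972 genes (0.725%) were called, 95 higher and 28 lower in *Shh*-/-. The paper's own list of differentially expressed genes from the same pools is much longer and includes *Dsp* as lower. The paper's methods do not name the test behind that list. In the fit used here *Dsp* was not called (limma adjusted p = 0.173). Nor was *Foxa2*, at 0.228-fold of WT (limma adjusted p = 0.0602). A gene that was not called is therefore not shown to be unchanged.

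No tight junction gene of the 9 passed the test in either direction in *Shh*-/- larynx, with limma adjusted p from 0.189 (*F11r*) to 0.992 (*Cldn6*). At an unadjusted p under 0.05, 1 was higher (*F11r*) and 0 were lower, against 24.8% of all tested genes, 17.5% higher and 7.22% lower. Fitted fold changes on the log2(TPM + 1) scale ran from 0.95-fold (*Ocln*) to 1.31-fold (*Cldn3*), and 8 of the 9 were above 0 in log2, against 58.3% of all tested genes. The median log2 fold change was 0.20 for the members and 0.08 for all tested genes. The 95% intervals of the 9 log2 fold changes lay between −0.54 and 0.92, which is 0.687-fold to 1.90-fold. After each library was corrected for GC content and transcript length, the members' median log2 fold change was −0.042 and 4 of the 9 were above 0. The median of all tested genes was then −0.011.

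Among the claudins, *Cldn6*, which is abundant in embryonic epithelia, had the highest level of all 9 genes. Its level was 190.0 TPM in *Shh*-/- pool 1, 164.9 TPM in pool 2, 181.2 TPM in WT pool 4 and 172.4 TPM in WT pool 6. The *Shh*-/- values enclosed both WT values, and the log2 fold change, with its SE, was 0.0021 ± 0.11 (95% interval −0.28 to 0.29, limma adjusted p = 0.992). *Cldn4*, a claudin of many barrier epithelia, measured 60.7 and 45.1 TPM in mutant larynx, against 51.2 and 48.7 TPM in WT larynx. Here too the WT pools lay between the mutant pools, with a log2 fold change of 0.07 ± 0.17 (SE, adjusted p = 0.828). The signs of these 2 genes are not settled, since both turned negative after median centring (−0.126 for *Cldn6* and −0.062 for *Cldn4*) and after the GC and length correction (−0.232 and −0.267). The median of all tested genes moved as well, from 0.083 to −0.046 and −0.011 in these settings.

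*Cldn7*, the claudin that EpCAM binds, measured 47.1 and 35.3 TPM in mutant larynx, against 30.9 and 31.1 TPM in WT larynx. Both *Shh*-/- pools were above both WT pools, and the mutant pools lay farther apart than the WT pools. Its log2 fold change, with its SE, was 0.38 ± 0.17 (limma adjusted p = 0.235). *Cldn3*, which lies near *Cldn4* on chromosome 5, measured 25.3 and 17.8 TPM in mutant larynx, against 17.1 and 14.9 TPM in WT larynx. *Shh*-/- pool 2 stood only just above WT pool 4, and the log2 fold change, with its SE, was 0.39 ± 0.21 (adjusted p = 0.303). Left without *Shh*-/- pool 1, the log2 fold changes were 0.181 for *Cldn7* and 0.146 for *Cldn3*, and after the GC and length correction 0.088 and −0.042.

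Of the other strand and adhesion proteins, *Epcam* measured 123.4 and 100.8 TPM in mutant larynx, against 90.3 and 86.4 TPM in WT larynx. The groups did not overlap, with a mean of 112.1 ± 15.98 TPM (SD, n = 2) for the mutant and 88.3 ± 2.77 TPM (SD, n = 2) for WT. Its log2 fold change, with its SE, was 0.33 ± 0.13 (95% interval −0.0045 to 0.67, limma adjusted p = 0.205), 0.189 without *Shh*-/- pool 1, and 0.03 after the GC and length correction. *F11r* measured 55.9 and 45.9 TPM in mutant larynx, against 39.3 and 38.5 TPM in WT larynx, again without overlap. Its log2 fold change of 0.37 (standard error 0.14) had the lowest adjusted p of the members, 0.189 in limma, and was 0.233 without *Shh*-/- pool 1 and 0.249 after the correction. *Ocln*, a low-level member, measured 8.41 and 6.62 TPM in mutant larynx, against 7.68 and 8.15 TPM in WT larynx. Its pools overlapped and its log2 fold change, with its SE, was −0.07 ± 0.18 (limma adjusted p = 0.818), the only value below 0 among the 9; it was 0.078 when *Shh*-/- pool 2 was left out.

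The scaffold gene *Tjp1*, whose product ZO-1 is also made in endothelium and mesenchyme, measured 52.5 and 49.99 TPM in mutant larynx, against 44.4 and 46.5 TPM in WT larynx. The 2 groups did not overlap but lay within 1.13-fold of each other on the fitted scale (a log2 fold change, with SE, of 0.17 ± 0.11, limma adjusted p = 0.365). *Tjp3*, whose product ZO-3 is largely restricted to epithelia, measured 7.44 and 5.44 TPM in mutant larynx, against 5.08 and 5.79 TPM in WT larynx. Its pools overlapped, with a log2 fold change of 0.20 ± 0.21 (SE, adjusted p = 0.571) that became 0.004 without *Shh*-/- pool 1 and −0.139 after the GC and length correction. In all, both *Shh*-/- pools were above both WT pools for 5 of the 9 genes (*Cldn3*, *Cldn7*, *Tjp1*, *Epcam* and *F11r*), as they were for 38.0% of all tested genes, and for none were both below, against 22.7%.

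**Figure D1:**
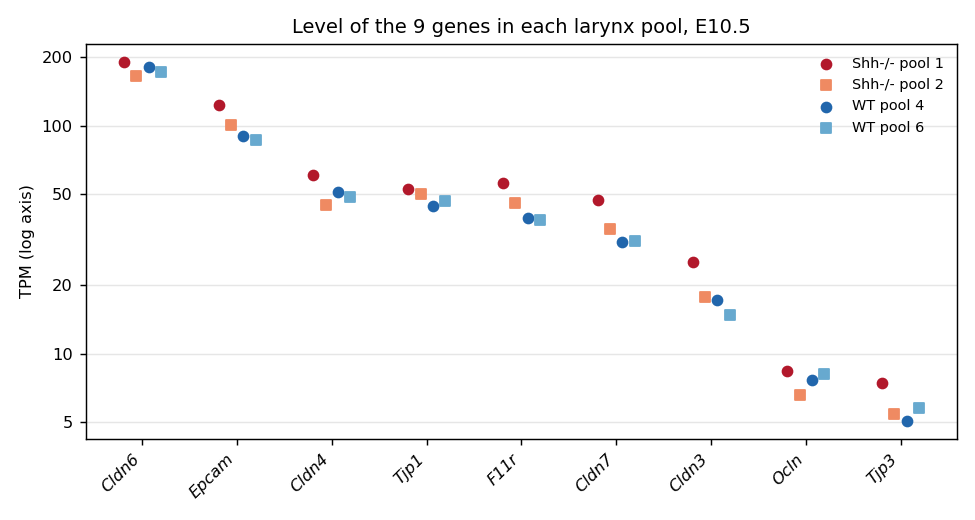
TPM (log axis) of the 9 genes in each of the 4 pools, with 1 point per pool and genes ordered by their mean in WT. The genes span from about 5 TPM (*Tjp3*) to 190.0 TPM (*Cldn6*), *Shh*-/- pool 1 is the highest pool for each gene, and *Shh*-/- pool 2 lies above both WT pools for *Cldn3*, *Cldn7*, *Tjp1*, *Epcam* and *F11r*.

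TPM is corrected for length, so the levels of the genes can be set side by side. In WT the order from high to low was *Cldn6*, *Epcam*, *Cldn4*, *Tjp1*, *F11r*, *Cldn7*, *Cldn3*, *Ocln* and *Tjp3*, and no gene's WT pools overlapped those of its neighbor in this order. The order of the group means was the same in *Shh*-/-. There the values of *Cldn4*, *Tjp1*, *F11r* and *Cldn7* interleaved, the first running from 45.1 to 60.7 TPM and the last from 35.3 to 47.1 TPM, and *Ocln* and *Tjp3* overlapped as well. The 9 genes summed to 570.8 and 471.8 TPM in the *Shh*-/- pools and to 467.3 and 452.4 TPM in WT. The 4 claudins made up 77.6 and 64.7% of all claudin TPM in *Shh*-/- and 68.9 and 68.3% in WT. With *Cldn12*, which was near 0 in *Shh*-/- pool 1 alone, left out of the total, a choice made after seeing the data, the shares were 77.6 and 70.7% in *Shh*-/- and 75.6 and 75.3% in WT.

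The mutant pools were also compared with each other. All 9 were higher in *Shh*-/- pool 1 than in *Shh*-/- pool 2, by a median of 0.30 on the log2 scale, whereas over all tested genes 57.9% were higher in pool 1 and the median difference was 0.05. The mean log2 level of the 16 other epithelial genes was likewise higher in pool 1 (4.50 against 4.21), though not every gene of that list was. Lower in pool 1 were the summed markers of muscle (102.7 against 200.1 TPM), erythroid cells (11852 against 17963), neurons (829.1 against 913.1), endothelium (443.6 against 520.0) and mesothelium (51.9 against 67.4). Those of mesenchyme (647.0 against 616.0) and foregut epithelium (108.7 against 91.2) were higher. Among the members, the ratio of pool 1 to pool 2 ran from 1.05 (*Tjp1*) to 1.42 (*Cldn3*). Between the WT pools 4 of the 9 were higher in pool 6, with a median difference of −0.03. The size of the members' fold changes varied with the pools included. Without *Shh*-/- pool 1, 6 of the 9 were above 0, their median was 0.134 and the lowest limma adjusted p was 0.459. Without *Shh*-/- pool 2, all 9 were above 0, their median was 0.394 and the lowest adjusted p was 0.168. *Shh*-/- pool 1 was also the shallowest library, and the part of depth or of the share of epithelium in this difference was not tested.

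GC content moved with the fold changes across the whole table. When tested genes were sorted by the GC content of their GENCODE transcripts into 10 bins, the median log2 fold change climbed from −0.26 in the lowest bin (25.7 to 42.3% GC) to 0.39 in the highest (58.1 to 86.5%). The members are mostly GC-rich, with 7 of the 9 at 52.9% or more and *Cldn3* at 62.7%, while *Ocln* and *Tjp1* are at 44.8 and 46.8%. Against the median of their own GC bin, 5 members were higher (*Cldn3*, *Cldn7*, *Epcam*, *F11r* and *Tjp1*) and 4 lower (*Cldn4*, *Cldn6*, *Tjp3* and *Ocln*). *Cldn3*, with the highest log2 fold change of the members, equaled its bin's median of 0.39 to 2 decimals. The difference from the bin median was −0.249 for *Cldn4*, −0.251 for *Cldn6*, 0.226 for *Tjp1* and 0.198 for *F11r*. Why GC content moves with genotype here was not tested.

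**Figure D2:**
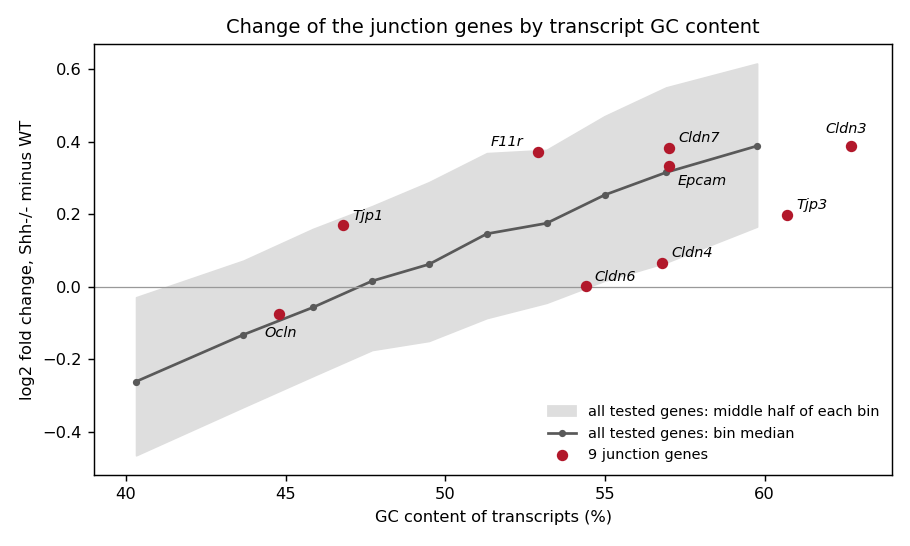
Log2 fold change (*Shh*-/- minus WT, on log2(TPM + 1)) against transcript GC content in percent, for the 9 genes (red) and for all tested genes in 10 GC bins (gray line, bin median; band, interquartile range of each bin). The bin medians climb from −0.26 to 0.39, and the 9 genes lie on both sides of the line.

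The members were then set beside other epithelial genes. In a list of 16 further epithelial genes, 15 were tested. Of these, 11 had a log2 fold change above 0 and 4 below, against 58.3% of all tested genes above 0. In limma 0 were called in either direction (0.560% of all tested genes were called higher and 0.165% lower). Before adjustment, 3 passed 0.05 on the high side and 2 on the low side, against 17.5% and 7.22% of all tested genes. The median log2 fold change of this list was 0.11. The keratin gene *Krt8* measured 124.3 and 107.6 TPM in mutant larynx, against 84.0 and 86.5 TPM in WT larynx (log2 fold change 0.44, adjusted p = 0.128), its partner *Krt18* had a log2 fold change of 0.18 (adjusted p = 0.339), and the serine protease inhibitor gene *Spint2* one of 0.41 (adjusted p = 0.161). *Cdh1*, which encodes E-Cadherin of the adherens junction, measured 41.1 and 25.9 TPM in mutant larynx, against 45.2 and 43.2 TPM in WT larynx (adjusted p = 0.311 in limma). *Dsp*, the desmosome plaque gene, and *Esrp2*, an epithelial splicing factor gene, were the 2 with an unadjusted p under 0.05 on the low side (log2 fold changes −0.59 and −0.45, adjusted p = 0.173 and 0.185) and are named here after their values were seen.

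The junction genes were also measured against the other epithelial genes of the same pool. This would take out a change in the share of epithelium only if it affected all of them alike. The log2 fold changes of the epithelial list ran from −0.585 to 0.491, so its mean is not a measure of that share. The mean log2(TPM + 1) of the 16 epithelial genes was 4.50 and 4.21 in the *Shh*-/- pools and 4.29 and 4.32 in WT. Relative to it, *Epcam* stood at 2.46 and 2.46 log2 units in *Shh*-/- and 2.22 and 2.13 in WT, and *F11r* at 1.32 and 1.34 against 1.04 and 0.98. The difference was 0.28 for *Epcam* and 0.32 for *F11r*, with a spread between pools of 0.047 and 0.03 (pooled SD from 2 pools per group). For both genes the mutant pools nearly coincided on this scale. *Cldn7* (0.33) and *Cldn3* (0.33) also stood higher relative to the list, *Tjp3* did so by 0.14, while *Ocln* was lower in both *Shh*-/- pools (−0.13). The pools overlapped for *Cldn4*, *Cldn6* and *Tjp1*. These ratios are a description, were not corrected for GC content and were not tested. Without this scaling, both *Shh*-/- pools were above both WT pools for 38.0% of all tested genes and below for 22.7%. The shares on the relative scale were not computed.

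Relative to *Cdh1* alone, every one of the 9 genes was higher in both *Shh*-/- pools than in both WT pools, by 0.35 (*Ocln*) to 0.81 (*Cldn3*) log2 units. These 9 differences share the *Cdh1* values as their reference, and are not separate results. The log2 fold change of *Cdh1* was −0.42, and 90% of all tested genes had a higher one. A rise relative to *Cdh1* is therefore not particular to the junction genes. The share of all tested genes whose pools separate on this scale was not computed. The *Cdh1* value of *Shh*-/- pool 2 (25.9 TPM) was the lowest of the 4, and the ratios to it were the highest for each gene. In *Shh*-/- pool 1, where *Cdh1* was at 41.1 TPM, the 9 ratios were also above both WT pools.

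**Figure D3:**
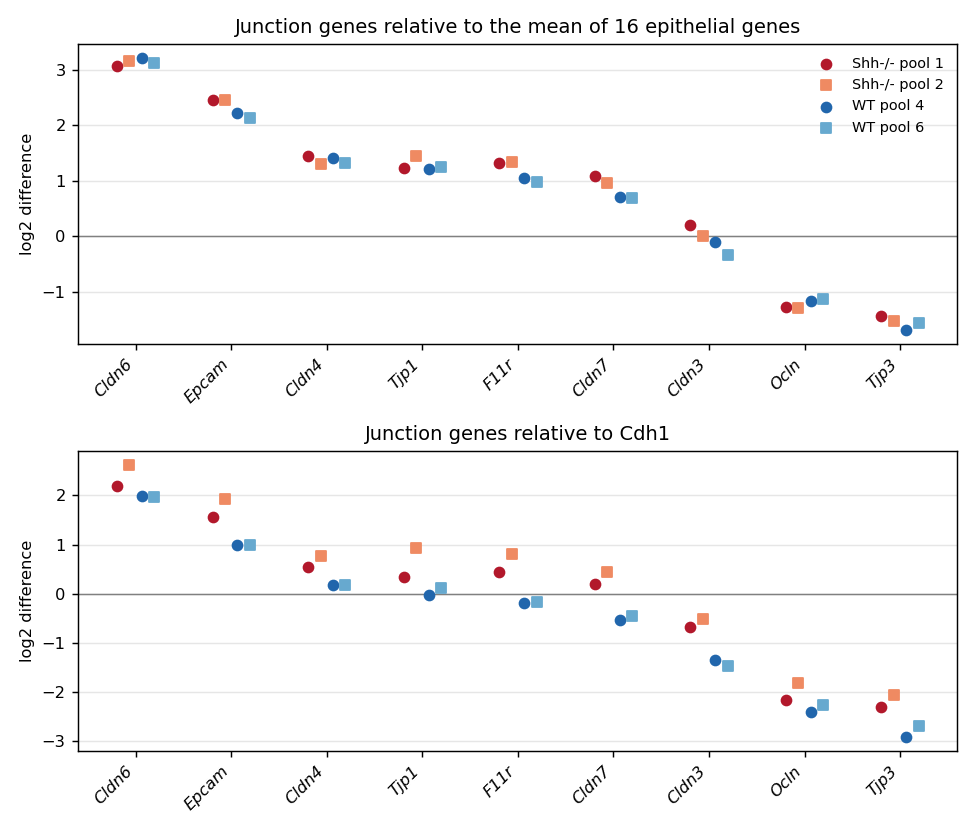
Log2 difference between each of the 9 genes and the mean log2(TPM + 1) of 16 epithelial genes (upper panel) or log2(TPM + 1) of *Cdh1* (lower panel), with 1 point per pool. In the upper panel *Epcam*, *F11r*, *Cldn7*, *Cldn3* and *Tjp3* are higher in both *Shh*-/- pools and *Ocln* is lower. In the lower panel all 9 are higher, where 90% of all tested genes had a higher log2 fold change than *Cdh1*. The shares of all tested genes whose pools separate on these 2 scales were not computed.

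Genes that mark foregut epithelium, which apart from *Shh* encode transcription factors, are set beside the junction genes, all 7 of the list being given. *Foxa2*, an endoderm factor, measured 5.34 and 9.12 TPM in mutant larynx, against 29.2 and 39.8 TPM in WT larynx (log2 fold change −2.13, limma adjusted p = 0.0602). *Foxa1* had a log2 fold change of −1.004 (adjusted p = 0.102) and *Nkx2-1*, a factor of the ventral respiratory foregut, one of −1.64 (adjusted p = 0.0715). *Sox2*, a factor of the dorsal foregut, measured 52.2 and 37.9 TPM in mutant larynx, against 39.5 and 47.3 TPM in WT larynx, and *Pax9*, a factor of the pharyngeal pouches, had a log2 fold change of 0.84 (adjusted p = 0.194). *Trp63*, a basal cell factor, measured 7.58 and 6.82 TPM against 8.43 and 17.5 TPM. Of the 7 genes of this list, *Shh* included, none was called at an adjusted p of 0.05. At an unadjusted p under 0.05, 4 were lower and 1 was higher, against 7.22% and 17.5% of all tested genes. *Shh*, the gene targeted in the mutant, is among the 4 lower, and its place there is not a separate result. The 95% intervals of *Foxa2* (−2.87 to −1.39), *Nkx2-1* (−2.29 to −0.98) and *Shh* (−2.23 to −0.76) did not meet the interval of any of the 9 junction genes. That of *Foxa1* (−1.55 to −0.46) met that of *Ocln* alone. The intervals of *Trp63* (−1.58 to 0.20), *Sox2* (−0.46 to 0.54) and *Pax9* (0.025 to 1.65) met those of all 9. The difference between the lists was not tested.

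**Figure D4:**
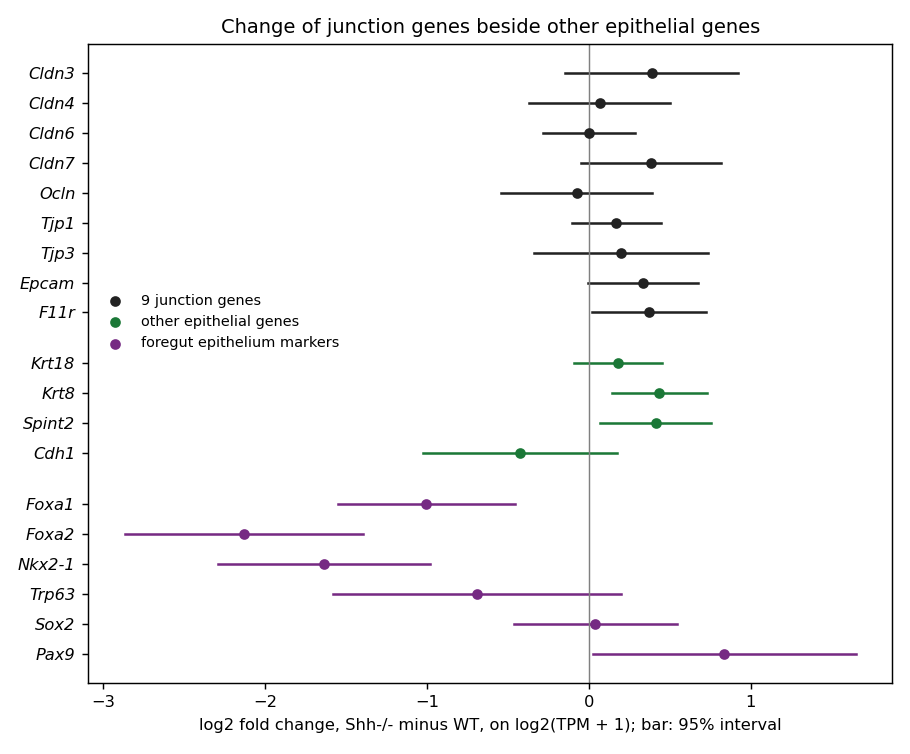
Log2 fold change (*Shh*-/- minus WT, on log2(TPM + 1)) with its 95% interval from limma for the 9 junction genes (black), the 4 epithelial genes of highest level (green) and the foregut epithelium markers other than *Shh* (purple). The junction genes lie between −0.07 and 0.39. The foregut markers run from −2.13 (*Foxa2*) to 0.84 (*Pax9*), with *Nkx2-1* at −1.64 and *Sox2* at 0.04.

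The claudins outside the 9 had log2 fold changes from −2.47 (*Cldn12*) to 1.36 (*Cldn5*). Of 21 listed, 20 were in the tables, 9 had a mean TPM of at least 1, and 0 were called in limma, 4 being higher and 1 lower by the unadjusted p, against 17.5% and 7.22% of all tested genes. *Cldn5*, the claudin of endothelial junctions, measured 44.5 and 57.5 TPM in mutant larynx, against 22.6 and 16.1 TPM in WT larynx, without overlap (a log2 fold change, with SE, of 1.36 ± 0.22, adjusted p = 0.0728). The 10 genes of the endothelial marker list summed to 443.6 and 520.0 TPM in *Shh*-/- and 312.6 and 293.0 TPM in WT, with all 10 log2 fold changes above 0 (*Esam* by 1e-04), no marker at 0 TPM, and 1 (*Tie1*) called higher, against 0.560% of all tested genes. The part of endothelial RNA in the values of *Cldn5*, *Tjp1* and *F11r* was not tested.

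*Cldn9*, which lies 137 bases from *Cldn6* on the opposite strand, measured 18.5 and 17.2 TPM in mutant larynx, against 9.70 and 8.31 TPM in WT larynx (log2 fold change 0.92, adjusted p = 0.0766 in limma). *Cldn1*, *Cldn18* and *Cldn2* are named outside the rule, after their values were seen. *Cldn1*, a claudin of stratified epithelium, measured 7.95 and 6.05 against 4.63 and 3.09 TPM (log2 fold change 0.73, adjusted p = 0.17). *Cldn11*, known from myelin and from Sertoli cells, went the other way, with 5.15 and 9.99 TPM in *Shh*-/- and 27.1 and 38.0 TPM in WT larynx (log2 fold change −2.01, adjusted p = 0.0765). *Cldn18*, a claudin of lung and stomach, was below the filter and listed at 0 in both mutant pools, with 0.944 and 1.61 TPM in the WT pools. Single libraries decided 2 values. *Cldn12* stood at 0.258 TPM in *Shh*-/- pool 1 and at 34.6 to 36.2 TPM in the other 3 pools, and *Cldn2* at 7.47 TPM in WT pool 4 and at most 0.174 TPM elsewhere.

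**Figure D5:**
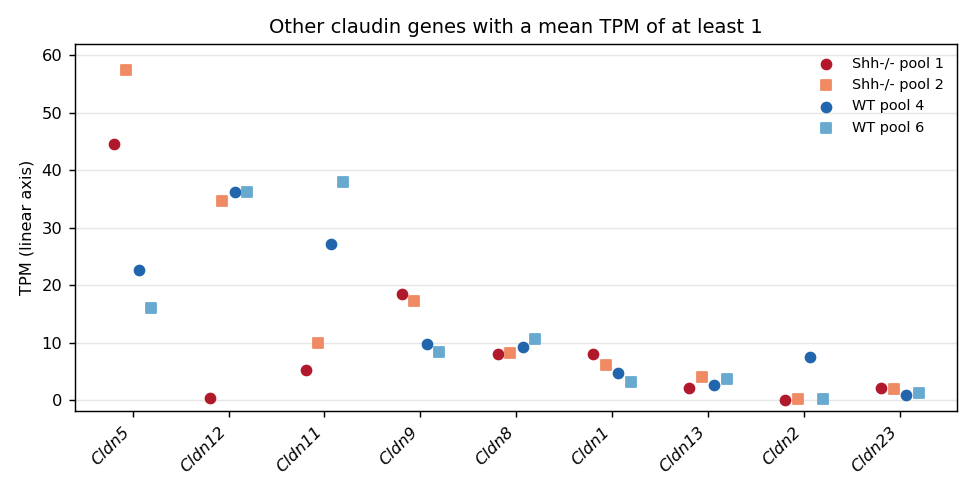
TPM (linear axis) in each pool for the 9 claudin genes outside the junction list that had a mean TPM of at least 1. *Cldn5* and *Cldn9* are higher and *Cldn11* lower in both *Shh*-/- pools, and *Cldn12* is near 0 in *Shh*-/- pool 1 alone.

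The remaining junction genes were counted as lists. Of 11 tested membrane proteins of the junction, 8 had a log2 fold change above 0 and 3 below, none was called, and the median was 0.27. Of all tested genes, 58.3% were above 0 and 0.725% were called, with a median of 0.08. *Jam3*, a relative of *F11r*, measured 78.3 and 77.6 TPM in mutant larynx, against 99.4 and 92.2 TPM in WT larynx (log2 fold change −0.29, limma adjusted p = 0.17). *Cxadr*, the coxsackie and adenovirus receptor of the junction, had a log2 fold change of −0.46 (adjusted p = 0.16), *Lsr*, a protein of tricellular corners, one of −0.14 (adjusted p = 0.508), and *Clmp*, a relative of *Cxadr*, one of 0.54 (adjusted p = 0.137). Of 20 tested plaque and polarity genes, 14 were above 0 and 6 below, with 0 called and a median of 0.26. Their most abundant members were *Ybx3*, *Arhgef2*, *Mpdz* and *Amotl1*, with log2 fold changes of 0.20, 0.32, −0.12 and 0.35 and limma adjusted p of 0.294, 0.247, 0.665 and 0.26. At an unadjusted p under 0.05, 3 membrane protein genes were higher and 2 lower, and 8 plaque and polarity genes were higher and 1 lower. Of all tested genes, 17.5% were higher and 7.22% lower at that level.

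Profiles like that of *Epcam* were sought by the distance between log2 values over the 4 pools, after centering each gene on its own mean. The nearest genes were *Ndst1*, *Myh9*, *Mras*, *Ecscr* and *Igdcc4*, at distances of 0.0228 to 0.0344 log2 units against a median of 0.493 for all tested genes. Of the members, *F11r* was nearest to *Epcam*, at 0.046, with 0.1% of tested genes nearer, and *Cldn7* was next at 0.109 (1.7% nearer). *Cldn6* and *Ocln* were the farthest at 0.337 and 0.42. With 4 libraries, this measure describes these pools only.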

How the data were processed

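Poly(A)-selected, strand-directional single-end libraries were made from 2 *Shh*-/- and 2 WT pools of 3 larynxes. Per the study's methods, the authors aligned reads to mm10 with HISAT2 2.1.0 and assembled genes with StringTie 1.3.6; the annotation release, and whether strand was used in the assignment of reads, are not given in the sources used here. The deposited tables give coverage (mean reads per base, the deposited signal, not normalized between libraries), FPKM (which the authors obtained as coverage over the library's aligned bases) and TPM (FPKM that the authors scaled to a fixed sum per library). Aligned bases were estimated from the highest ratio of coverage to FPKM. Of the entries above 1 FPKM, 36.9 to 37.5% per library lay at that ratio. No read counts were used, so no counting interval was computed. The labels do not say that pools came from separate litters, so p-values measure only the spread between these pools.

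TPM was summed per gene ID. The fit used log2(TPM + 1) of the 16972 genes whose mean TPM was 1 or more, in limma 3.58.1 (R 4.3.3) with eBayes and its trend option, without covariates, with Benjamini-Hochberg adjustment and a threshold of 0.05, and the script was tested on simulated data. Named genes were the 9 members, *Shh*, *Ptch1*, the called or otherwise up to 4 most abundant genes of each list, and the 5 nearest to *Epcam*. The members and lists were chosen with earlier results of these data known. GC content and transcript length were medians over GENCODE M21 transcripts, matched by gene ID without version for 46488 genes. Every annotated transcript counted alike, which gave lengths from 642 bases (*Tjp3*) to 2443 (*Ocln*) among the members, with 699 for *Tjp1*. Whether these medians describe the expressed transcripts was not examined. Promoter windows came from RefSeq. Of the listed names, *Cldn25*, *Patj* and *Afdn* had no entry under that symbol. The alternatives changed the pseudocount, the filter, the scaling, the GC and length correction (natural splines with 5 degrees of freedom each), the variance model, the threshold and the pools included. Protein sequences were not used here.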

Additional observations from a re-analysis of the deposited data

How the results depend on the processing

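None of the 9 junction genes was called under any of the 15 alternatives, which included an adjusted p of 0.10 as the threshold and each pool left out in turn. Their median log2 fold change (0.199) was −0.042 with the GC and length correction, 0.07 with median centring and 0.091 with quantile normalization. The median of all tested genes (0.083) was −0.011, −0.046 and −0.008 in the same settings. The members' median ran from 0.134 to 0.394 with 1 pool left out. The direction reversed for *Cldn4* with quantile normalization (−0.006), and for *Cldn4* and *Cldn6* with median centring (−0.062 and −0.126). *Cldn6* also reversed with FPKM (−0.031) and without haemoglobin genes (−0.002). With the GC and length correction *Cldn3*, *Cldn4*, *Cldn6* and *Tjp3* reversed (−0.042, −0.267, −0.232 and −0.139). With 1 pool left out, *Cldn4* ran from −0.145 (no *Shh*-/- pool 1) to 0.277, *Ocln* from −0.226 to 0.078 (no *Shh*-/- pool 2), and *Cldn6* from −0.1 (no *Shh*-/- pool 1; −0.034 with no WT pool 6) to 0.104. *Cldn7*, *Tjp1*, *Epcam* and *F11r* kept their direction under all 15. Relative to *Cdh1* alone in place of 16 epithelial genes, the median difference was 0.624 against 0.142. Of all tested genes, 90% had a higher log2 fold change than *Cdh1*. The threshold of 0.10 called 4 of the other tight junction genes (*Cldn5*, *Cldn9*, *Cldn11* and *Amotl2*), where 0.05 called 0. Their lists held 9, 11 and 20 tested genes, and 858 of all 16972 tested genes passed 0.10. Over all tested genes the count of 123 was 69 with a pseudocount of 0.1, 0 with no filter (5011 at an unadjusted p under 0.05), 858 at the threshold of 0.10 and from 0 to 16 with 1 pool left out. A lone pool is then assumed to vary like the other group. The levels kept their order with FPKM. TPM holds no counts, so 2 pools per group set the precision. No paired analysis was possible because the pools of the 2 groups carry no shared replicate numbers.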

Other observations

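Marker genes of other cell types in the same pools are given as values. The 10 neuron genes summed to 829.1 and 913.1 TPM in *Shh*-/- and 228.9 and 155.0 TPM in WT, with 5 called higher in limma (*Tubb3*, *Gap43*, *Nefl*, *Stmn2* and *Elavl3*), against 0.560% of all tested genes. The 10 striated and cardiac muscle genes summed to 102.7 and 200.1 against 39.7 and 41.5 TPM, with 2 called higher (*Myh6* and *Myh7*) of the 8 tested, against the same 0.560%. The 10 erythroid genes all had log2 fold changes below 0, from −0.983 to −0.024, and none was called. In the mesenchyme list *Twist1*, a mesenchymal transcription factor gene, was called higher (147.0 and 125.0 against 46.1 and 43.8 TPM, adjusted p = 0.0323), while *Foxf1*, named outside the rule after its values were seen and a factor of the mesenchyme around the gut, measured 0.848 and 9.57 against 72.3 and 64.6 TPM (adjusted p = 0.0976). The 8 mesenchyme genes summed to 647.0 and 616.0 against 598.2 and 619.3 TPM. *Col3a1* alone held 359.2 and 326.1 against 309.2 and 343.3 TPM of these sums. The log2 fold changes of the 8 ran from −3.97 (*Foxf1*) to 1.57 (*Twist1*), 4 above 0 and 4 below. *Twist1* was the only gene of the 8 called, against 0.560% of all tested genes called higher. Of 5 mesothelium genes 4 were tested and none was called, with sums of 51.9 and 67.4 against 48.3 and 50.8 TPM. No gene of these lists was at 0 TPM in all pools.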
